A study of Homo sapiens with 6 samples.

Results

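The hypoxia response genes are 10 genes of the cellular answer to low oxygen: HIF1A, EGLN3, VEGFA, DDIT4, NDRG1, ANKRD37, HILPDA, P4HA1, BNIP3 and CA9. They were listed by name and followed through the array probe sets annotated to each of them. Of the 10, 9 had at least 1 probe set that named the gene alone (17 probe sets in all), out of 19775 genes with such a probe set on the array, and 8 of the 9 were bright enough to test, out of 10370 genes tested. No probe set named CA9 in the annotation used, so it is not analysed here, and BNIP3 lay at the lowest value.

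All samples were HT-29 cells (HTB-38), a line from a human colon adenocarcinoma, grown in McCoy's medium with serum. The wild type variant was compared with BR100 and BR200, which the labels name as separate cell variants. The protocol describes growth in bortezomib, a proteasome inhibitor, raised from 20 to 300 nM over 7 months, followed by limiting dilution at 100 or 300 nM for 4 months. That text stands on all samples, wild type included. It states neither the dose at which BR200 was isolated nor whether drug was in the medium at harvest, and a resistant variant isolated by limiting dilution stands for a clone. Each variant gave 2 arrays, 1 from 100 ng of RNA labelled with the Express kit and 1 from 3 ug labelled with the One-Cycle kit. Separate cultures are not mentioned, so the p-values measure the spread between these arrays, which may be technical. No sample was labelled as grown at low oxygen.

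Cells sense oxygen through HIF, a transcription factor made of an oxygen-sensitive alpha subunit such as HIF1A and the stable partner ARNT. When oxygen is present, prolyl hydroxylases of the EGLN family mark the alpha subunit, a ubiquitin ligase recognises the mark, and the proteasome degrades the protein. When oxygen is low the alpha subunit escapes, pairs with ARNT and binds short DNA elements with the core ACGTG or GCGTG near genes for blood vessel growth, glycolysis, pH control and cell survival. Arrays measure the mRNA of these genes and not the HIF protein. Several of the target genes also answer to other signals; DDIT4 and VEGFA, for example, are induced by the ATF4 stress response.

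The HIF core was searched in the 250 bases before the RefSeq start of each gene (GRCh38.p14), on both strands, because it is the element through which the pathway acts. Entries existed for 7 of the 10 genes. Upstream windows are shown for ANKRD37, DDIT4 and P4HA1, which were lower in BR100, and for HIF1A, which was higher. Capitals mark the matches to ACGTG and GCGTG or, for a match on the opposite strand, to their reverse complements. ANKRD37 (chr4:185396591-185396840, plus strand) held 3 matches, of which 2 are a palindrome read on both strands. DDIT4 (chr10:72273674-72273923, plus strand) held 1 ACGTG and 2 GCGTG. P4HA1 (chr10:73096867-73097116, minus strand) held 1 ACGTG. HIF1A (chr14:61695263-61695512, plus strand) held 1 GCGTG in the first of its 2 windows and 0 in the other.
ANKRD37: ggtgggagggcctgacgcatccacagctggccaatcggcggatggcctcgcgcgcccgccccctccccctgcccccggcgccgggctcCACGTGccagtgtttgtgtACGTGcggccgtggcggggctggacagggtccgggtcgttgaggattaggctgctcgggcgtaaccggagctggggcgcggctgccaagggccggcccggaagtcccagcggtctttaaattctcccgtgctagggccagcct
DDIT4: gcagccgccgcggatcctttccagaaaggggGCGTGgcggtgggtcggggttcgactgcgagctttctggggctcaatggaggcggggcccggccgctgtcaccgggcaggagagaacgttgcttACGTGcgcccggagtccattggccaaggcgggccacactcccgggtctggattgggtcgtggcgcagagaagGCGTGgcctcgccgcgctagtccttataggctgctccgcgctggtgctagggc
P4HA1: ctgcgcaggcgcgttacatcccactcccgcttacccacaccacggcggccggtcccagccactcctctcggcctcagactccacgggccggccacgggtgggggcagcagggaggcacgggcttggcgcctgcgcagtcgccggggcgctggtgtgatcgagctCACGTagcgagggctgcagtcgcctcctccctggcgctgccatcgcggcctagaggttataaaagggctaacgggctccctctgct
HIF1A: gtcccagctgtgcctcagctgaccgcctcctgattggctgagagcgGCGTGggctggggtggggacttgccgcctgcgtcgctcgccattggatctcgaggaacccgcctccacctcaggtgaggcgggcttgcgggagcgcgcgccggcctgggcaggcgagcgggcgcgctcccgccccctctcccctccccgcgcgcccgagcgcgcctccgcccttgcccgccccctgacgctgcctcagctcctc
BNIP3 held 2 ACGTG and 4 GCGTG, CA9 held 1 ACGTG, and EGLN3 held 0 of either. Of all 35116 windows of this length, 43.2% held at least 1 match and 7.76% held 3 or more, so a single match is common. A match is a string of letters, and no binding was measured.

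Arrays had 10063 to 10193 genes at or above 4 on the log2 scale, and arrays of the same variant correlated across genes at 0.983 to 0.985. BR100 and BR200 arrays of the same kit correlated slightly more closely, at 0.987 in each kit. Genes are not independent replicates. Below 4 a gene is called near background here; each array held 34.9% to 35.3% of its probe sets at the shared minimum of 2.23. Of 10 colon epithelial markers 8 passed the filter (a log2 value of 4 on at least 2 arrays), CDX1 and CDX2 being near background. Fibroblast and blood markers passed in 1 of 5 (COL1A1) and 1 of 4 (CD14), endothelial markers in 0 of 4, and PTPRC and CD3E were at the lowest value. The log2 of the summed signal of a list was taken on each array. For colon it ran from 17.14 to 17.20 in wild type and from 16.88 to 16.94 in the resistant variants. In the same order it ran from 6.22 to 6.23 and from 5.90 to 6.08 for fibroblasts. For blood cells it ran from 5.64 to 5.85 and from 5.89 to 6.88. For endothelium it stood at 4.32 and ran from 4.30 to 4.37. Such a sum follows the brightest genes of its list, for colon KRT18 at 15.30 to 15.43. Dimmer colon markers ranged more widely over the arrays, LGALS4 from 6.90 to 13.48, CEACAM5 from 6.23 to 8.75 and VIL1 from 6.48 to 8.54. Among the other colon markers that passed, the widest range was that of KRT20, from 13.93 to 14.75. The 3′ minus 5′ gap of ACTB, which follows RNA integrity and labelling, was 4.22 and 2.99 on the wild type arrays (Express, One-Cycle), 3.03 and 1.86 on the BR100 arrays and 3.24 and 1.76 on the BR200 arrays. This gap moved with the variants, and its part in the results below was not tested. In bulk RNA, fewer expressing cells and less RNA per cell cannot be told apart.

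The oxygen-sensing genes HIF1A and EGLN3 were higher in both resistant variants, and of the other 6 tested genes 5 were lower in BR100 and 4 in BR200. Of all genes tested, 36.7% were called higher and 31.8% lower in BR100, and 35.4% and 31.2% in BR200. HIF1A, the alpha subunit itself, read 12.24 (Express) and 12.48 (One-Cycle) in wild type, 13.06 and 13.27 in BR100, and 13.13 and 13.29 in BR200, on the log2 scale. All 4 resistant arrays lay above both wild type arrays. HIF1A was 1.75-fold higher in BR100 (log2 change 0.81, SE 0.0660, limma adjusted p = 0.000781) and 1.80-fold higher in BR200 (0.85, SE 0.0660, adjusted p = 0.000765). EGLN3, a prolyl hydroxylase that HIF induces and that acts back on HIF alpha subunits, read 6.29 and 5.16 in wild type, 6.96 and 6.09 in BR100, and 7.27 and 6.04 in BR200. Its groups overlapped across kits, and within each kit both resistant arrays were above wild type. The change was 0.80 (SE 0.109, adjusted p = 0.00342) in BR100 and 0.93 (SE 0.109, adjusted p = 0.00236) in BR200. Without the term for kit neither passed (adjusted p = 0.350 and 0.294). The dimmer EGLN3 probe set, 219232_s_at, did not pass, at 0.04 (adjusted p = 0.858) and 0.23 (adjusted p = 0.344), and the mean of both probe sets gave 0.42 and 0.58, both called.

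**Figure D1:**
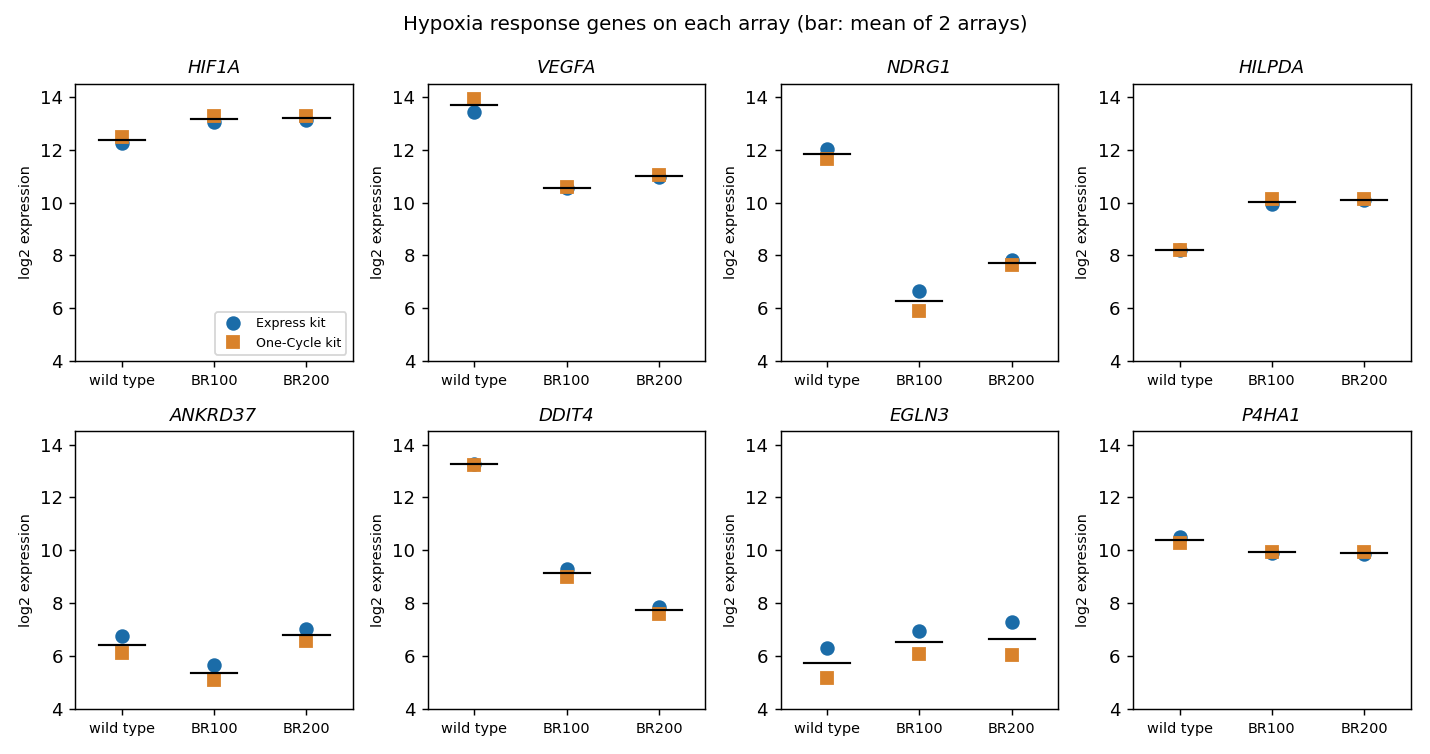
Level of each of the 8 tested hypoxia response genes (y axis, log2 expression as deposited) on every array, by variant (x axis). Circles are Express arrays, squares are One-Cycle arrays and the bar is the mean of 2 arrays; DDIT4 goes from 13.25 in wild type to 7.72 in BR200, while HIF1A stays between 12.24 and 13.29.

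VEGFA, the secreted growth factor that drives blood vessel sprouting, was lower in both resistant variants. It read 13.44 and 13.91 in wild type, 10.53 and 10.60 in BR100, and 10.96 and 11.05 in BR200. Every resistant array was below both wild type arrays by more than 2 log2 units. VEGFA was 8.64-fold lower in BR100 (log2 change −3.11, SE 0.126, adjusted p = 0.000174) and 6.36-fold lower in BR200 (−2.67, SE 0.126, adjusted p = 0.000257). All 4 of its probe sets fell, with changes of −3.38 to −3.11 in BR100 and of −3.10 to −2.67 in BR200.

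DDIT4, a stress-induced inhibitor of the growth kinase mTORC1, was lower in both resistant variants, BR200 in particular. It read 13.28 and 13.22 in wild type, 9.31 and 8.98 in BR100 and 7.85 and 7.60 in BR200. The 3 variants did not overlap. DDIT4 was 17.2-fold lower in BR100 (−4.10, SE 0.0911, adjusted p = 7.56e-05), the 88th lowest change among all genes tested, and 46.0-fold lower in BR200 (−5.52, SE 0.0911, adjusted p = 8.06e-05), the 25th lowest.

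NDRG1, a cytoplasmic protein induced by hypoxia and by differentiation, read 12.02 and 11.65 in wild type, 6.64 and 5.91 in BR100, and 7.83 and 7.63 in BR200. The 3 variants again did not overlap, with BR100 lowest. NDRG1 was 47.1-fold lower in BR100 (−5.56, SE 0.144, adjusted p = 8.42e-05) and 17.2-fold lower in BR200 (−4.10, SE 0.144, adjusted p = 0.000166). Those were the 34th and 68th lowest changes of the respective comparisons.

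HILPDA was higher in both resistant variants, against the falls of VEGFA, DDIT4 and NDRG1. It encodes a lipid droplet protein that HIF induces and that restrains fat breakdown. It read 8.20 and 8.22 in wild type, 9.93 and 10.12 in BR100, and 10.10 and 10.12 in BR200, with no overlap between wild type and either resistant variant. HILPDA was 3.51-fold higher in BR100 (1.81, SE 0.0787, adjusted p = 0.000193) and 3.73-fold higher in BR200 (1.90, SE 0.0787, adjusted p = 0.000209). The second HILPDA probe set rose by 2.04 and 2.02.

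ANKRD37, an ankyrin repeat gene known as a direct HIF target, went in opposite directions in the resistant variants. It read 6.74 and 6.13 in wild type, 5.65 and 5.08 in BR100, and 7.03 and 6.58 in BR200. Both BR100 arrays lay below both wild type arrays, whereas BR200 and wild type overlapped. ANKRD37 was 2.10-fold lower in BR100 (−1.07, SE 0.0754, adjusted p = 0.000538) and 1.29-fold higher in BR200 (0.37, SE 0.0754, adjusted p = 0.0125). The rise in BR200 did not pass without the BR200 One-Cycle array (0.30, adjusted p = 0.0907), without the wild type One-Cycle array (0.32, adjusted p = 0.0657) or when averaged with a second, near background probe set (0.15, adjusted p = 0.153). Averaging also brought the fall in BR100 to −0.48. Without the term for kit neither change passed (adjusted p = 0.0519 in BR100 and 0.410 in BR200).

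P4HA1, the catalytic subunit of a collagen prolyl hydroxylase, was slightly lower in both resistant variants. It read 10.49 and 10.26 in wild type, 9.89 and 9.95 in BR100, and 9.85 and 9.93 in BR200, with all resistant arrays below both wild type arrays. P4HA1 fell by 0.45 in BR100 (SE 0.105, adjusted p = 0.0179) and by 0.48 in BR200 (SE 0.105, adjusted p = 0.0154). Neither change passed once an array of that resistant variant was left out: −0.39 (adjusted p = 0.114) without the BR100 Express array, −0.52 (adjusted p = 0.0615) without its One-Cycle array, −0.40 (adjusted p = 0.105) without the BR200 Express array and −0.57 (adjusted p = 0.0525) without its One-Cycle array. Averaged with a second probe set at the shared minimum, P4HA1 stood at −0.23 and −0.24, both called. BNIP3, a mitochondrial receptor for mitophagy, stood at 2.23 or 2.24 on all 6 arrays in both of its probe sets and has no comparison.

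Taking the 8 tested genes as a group in BR100 against wild type, 3 were higher and 5 were lower, so each passed the threshold. That count has to be read against the rest of the array, where 68.5% of all genes tested passed, 36.7% as higher and 31.8% as lower. The median change of the 8 was −0.76 against 0.04 for all genes, and their median absolute change was 1.44 against 0.55. Changes of at least 2-fold that passed were found for 5 of the 8 and for 25.7% of all genes. The 8 were chosen with earlier results of these data known. The sizes of their changes in BR100 and BR200 are therefore no independent evidence. Levels did not overlap between the variants for 7 of the 8, EGLN3 being the exception, and for 72.1% of all genes.

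In BR200 against wild type 4 of the 8 were higher and 4 lower, beside 66.5% of all genes called, 35.4% higher and 31.2% lower. The median change was −0.06 against 0.04 for all genes, and 4 of the 8 passed with at least 2-fold (23.7% of all genes). The comparisons of BR100 and of BR200 share the wild type arrays. Side by side, BR100 and BR200 gave 0.81 and 0.85 for HIF1A, −3.11 and −2.67 for VEGFA, −4.10 and −5.52 for DDIT4, and −5.56 and −4.10 for NDRG1. ANKRD37, at −1.07 and 0.37, was the gene whose called changes had opposite signs.

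**Figure D2:**
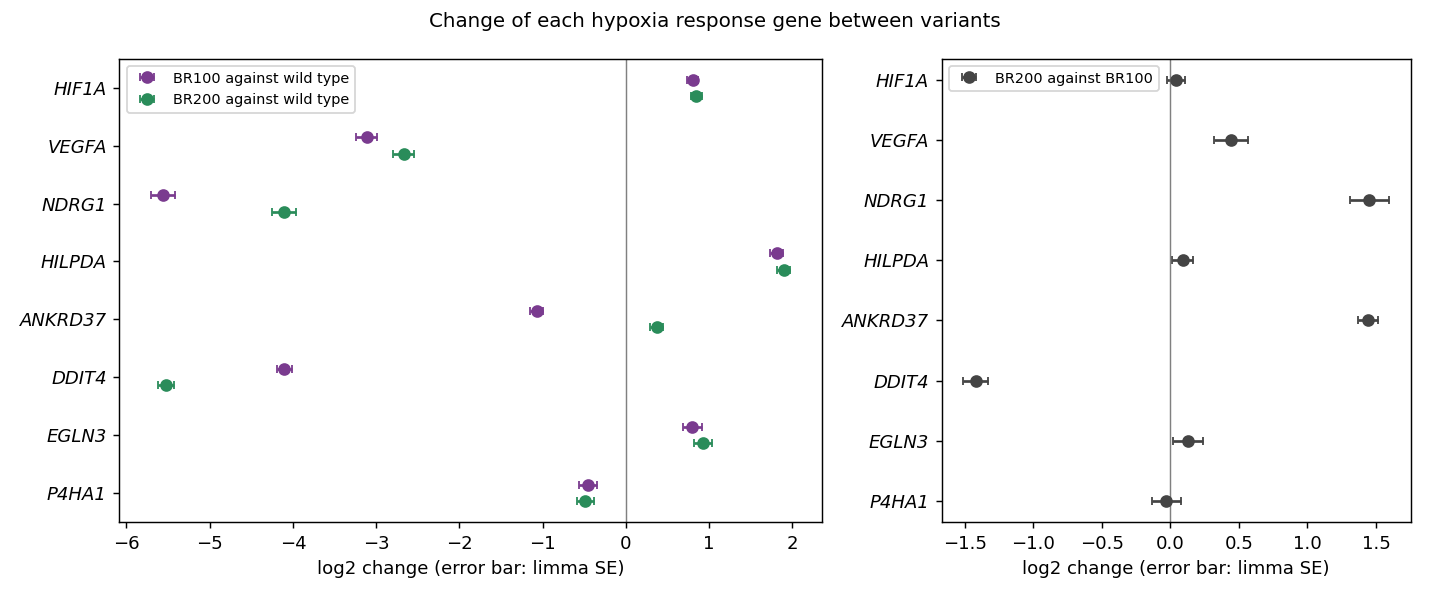
Change of each tested hypoxia response gene (x axis, log2; error bars are limma's SE, 2 arrays per variant) in BR100 and BR200 against wild type (left) and in BR200 against BR100 (right). Points left of 0 are lower; NDRG1, DDIT4 and VEGFA lie between −5.56 and −2.67 in the left panel, while HIF1A, EGLN3 and HILPDA lie between 0.80 and 1.90.

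Within each labelling kit the same differences were seen. On Express and One-Cycle arrays BR100 differed from wild type by −2.91 and −3.31 for VEGFA, by −5.38 and −5.74 for NDRG1, by −3.97 and −4.23 for DDIT4 and by −1.09 and −1.05 for ANKRD37. The corresponding differences for genes that rose were 0.82 and 0.80 for HIF1A, 1.73 and 1.90 for HILPDA and 0.67 and 0.93 for EGLN3. P4HA1 differed by −0.60 and −0.31. All 8 genes thus had the same sign in both kits in BR100.

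BR200 differed from wild type by −2.48 and −2.86 for VEGFA, −4.19 and −4.02 for NDRG1, −5.43 and −5.62 for DDIT4, 0.88 and 0.81 for HIF1A, and 1.90 and 1.90 for HILPDA on Express and One-Cycle arrays. It differed by 0.29 and 0.45 for ANKRD37, by 0.98 and 0.88 for EGLN3 and by −0.64 and −0.33 for P4HA1. The sign was the same in both kits for all 8 here too. Disagreement between kits enters the error of the test, so this is no separate support for the calls.

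**Figure D3:**
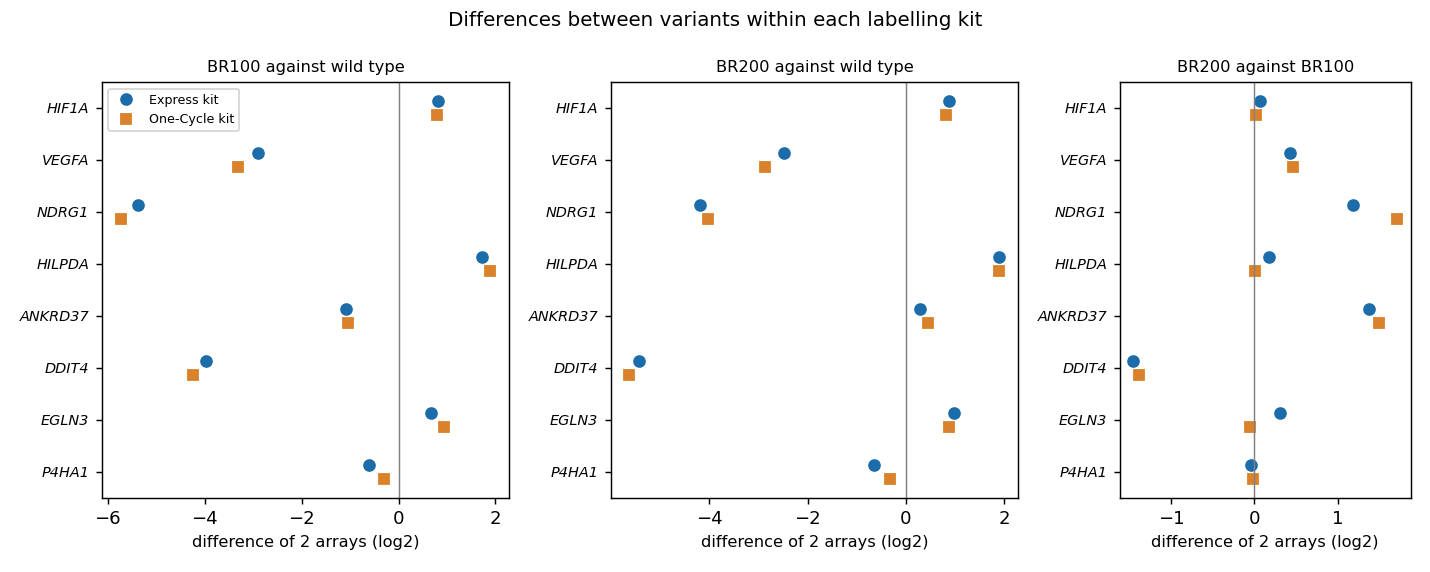
Difference between variants for each tested gene (x axis, log2 difference of 2 arrays) computed within the Express kit (circles) and within the One-Cycle kit (squares), for the 3 comparisons. In BR200 against BR100, NDRG1 stands at 1.19 (Express) and 1.71 (One-Cycle). EGLN3 in that comparison is the gene with opposite signs, at 0.31 and −0.05.

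The resistant variants differed from each other in 3 of the 8 genes, with 2 higher and 1 lower in BR200, where 10.6% of all genes tested were called (6.39% higher and 4.23% lower). NDRG1 was 2.74-fold higher in BR200 than in BR100 (log2 change 1.45, SE 0.144, adjusted p = 0.0167) and ANKRD37 was 2.71-fold higher (1.44, SE 0.0754, adjusted p = 0.00525). DDIT4 was 2.68-fold lower (−1.42, SE 0.0911, adjusted p = 0.00743). These differences also test whether the change against wild type differs between the variants.
The other 5 genes did not pass. VEGFA differed by 0.44 (95% interval 0.10 to 0.78, adjusted p = 0.102), HIF1A by 0.04 (−0.14 to 0.22, adjusted p = 0.705), HILPDA by 0.09 (−0.12 to 0.30, adjusted p = 0.504), EGLN3 by 0.13 (−0.16 to 0.43, adjusted p = 0.479) and P4HA1 by −0.03 (−0.31 to 0.25, adjusted p = 0.889). Those intervals are for single genes and are not adjusted for the number tested.
The calls between the resistant variants were also examined with each array left out, which left 1 residual degree of freedom. The calls of NDRG1 and ANKRD37 were lost whichever array was left out, with changes of 1.23 to 1.67 (adjusted p = 0.0661 to 0.118) and of 1.37 to 1.51 (adjusted p = 0.0572 to 0.0763). DDIT4 lost its call without any of the 4 resistant arrays (−1.50 to −1.34, adjusted p = 0.0737 to 0.0993) and kept it without either wild type array. Averaging probe sets brought the ANKRD37 difference to 0.63.

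Some of these genes also differed between the arrays of the labelling kits. Each kit was used with its own amount of RNA, so kit and RNA amount cannot be told apart in these differences. EGLN3 was higher on Express arrays by 1.08 (SE 0.0892, adjusted p = 0.00544), beside 0.80 and 0.93 between variants, and ANKRD37 was higher by 0.54 (SE 0.0616, adjusted p = 0.00875). HIF1A was lower by 0.20 (SE 0.0539, adjusted p = 0.0494). In all 2 of the 8 genes were higher and 1 lower, beside 34.0% of all genes called, 22.4% higher and 11.7% lower. Of those called genes 65.7% were higher, but only 43.3% when each array was centred on its median, so the direction of small kit differences depends on the scaling. Leaving out any array ended the HIF1A kit call (adjusted p = 0.114 to 0.177), and leaving out any resistant array ended that of ANKRD37 (adjusted p = 0.0556 to 0.0610). Two-sided tests of VEGFA (−0.21), NDRG1 (0.43), DDIT4 (0.21), HILPDA (−0.08) and P4HA1 (0.03) did not pass.

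The probe sets of VEGFA and HILPDA differed more in their kit change than in their change between variants, while those of EGLN3 differed in both. VEGFA probe set 211527_x_at read 8.02 on the Express array and 10.44 on the One-Cycle array of wild type, 5.25 and 6.96 in BR100, and 5.20 and 7.07 in BR200. It was lower on Express arrays by 2.00 (SE 0.162, adjusted p = 0.00498 over 19055 probe sets), yet it differed between BR100 and wild type by −3.12, beside −3.11 for the VEGFA set used for the gene, 210512_s_at. VEGFA set 212171_x_at read 10.80 and 11.76 in wild type, 7.72 and 8.08 in BR100, and 8.07 and 8.69 in BR200. VEGFA set 210513_s_at read 9.19 and 9.22, 5.67 and 6.10, and 6.06 and 6.30 in the same order. HILPDA set 218507_at read 7.99 and 7.14 in wild type, 9.86 and 9.35 in BR100, and 9.94 and 9.23 in BR200. Its kit difference was 0.69, with the opposite sign to the −0.08 of the HILPDA set 1554452_a_at. EGLN3 set 219232_s_at stayed between 4.05 and 4.85 on all arrays, just above background, and changed by 0.37 between kits beside 1.08 for 222847_s_at, and by 0.04 beside 0.80 in BR100.

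**Figure D4:**
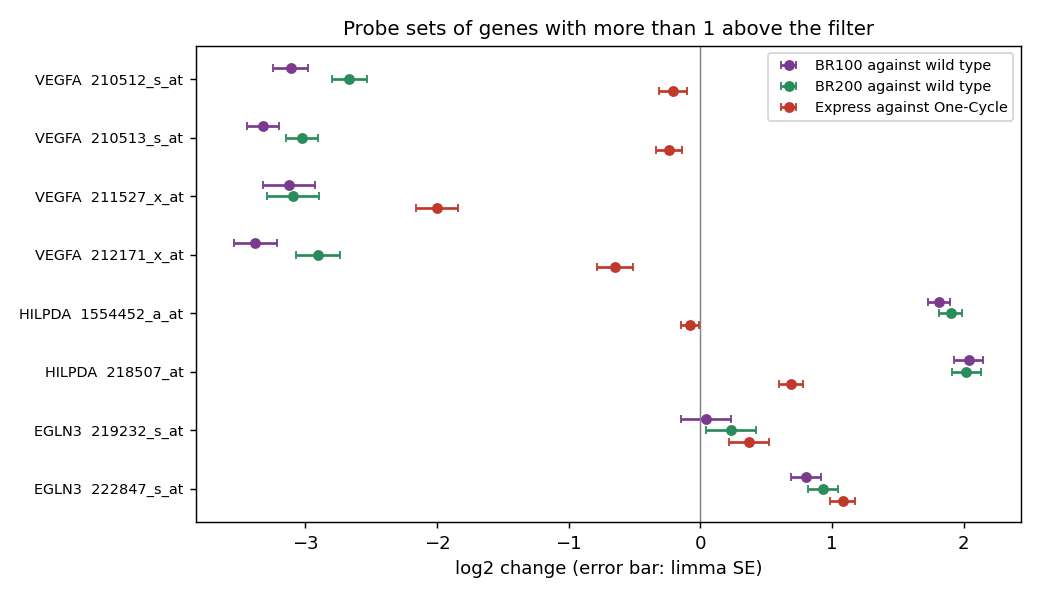
Change of each probe set of VEGFA, HILPDA and EGLN3 (y axis) on the log2 scale (x axis; error bars are limma's SE) in BR100 and BR200 against wild type and on Express against One-Cycle arrays. The variant changes of the 4 VEGFA sets lie between −3.38 and −2.67, while their kit changes run from −2.00 to −0.21.

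HIF1A and EGLN3 lie on chromosome 14, where tested genes tended to be higher in BR100 and BR200, a feature already known from these data. Of 349 tested genes of that chromosome, 230 were higher and 45 lower in BR100 and 233 higher and 33 lower in BR200. The chromosome medians were 0.63 and 0.66, the highest of the 23 chromosomes; the next highest in BR100 was 0.16, on chromosome 21. Among the 10 tested genes nearest to HIF1A, 8 were higher and 1 lower in BR100 (median 0.92), and 8 were higher and 0 lower in BR200 (median 0.73). Near EGLN3, 8 of 10 were higher and 0 lower in each (median 0.73 in both). The rises of HIF1A (0.81 and 0.85) and EGLN3 (0.80 and 0.93) stood near these medians. The part of this chromosome-wide shift in both rises was not tested.
The other members lay on chromosomes with medians between −0.14 (chromosome 8 in BR200) and 0.14 (chromosome 6 in BR200). HILPDA, on chromosome 7, had 10 nearest tested genes with medians of −0.21 in BR100 and −0.14 in BR200. The corresponding medians were −0.06 and −0.04 around NDRG1 on chromosome 8, and −0.48 and −0.73 around ANKRD37 on chromosome 4. Around VEGFA on chromosome 6 they were 0.20 and 0.01, with single genes from −2.85 to 0.97 and from −2.34 to 0.84. On chromosome 10, where DDIT4 is among the 10 tested genes nearest to P4HA1, the medians were −0.23 and 0.04 around DDIT4 and 0.02 and 0.04 around P4HA1.

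**Figure D5:**
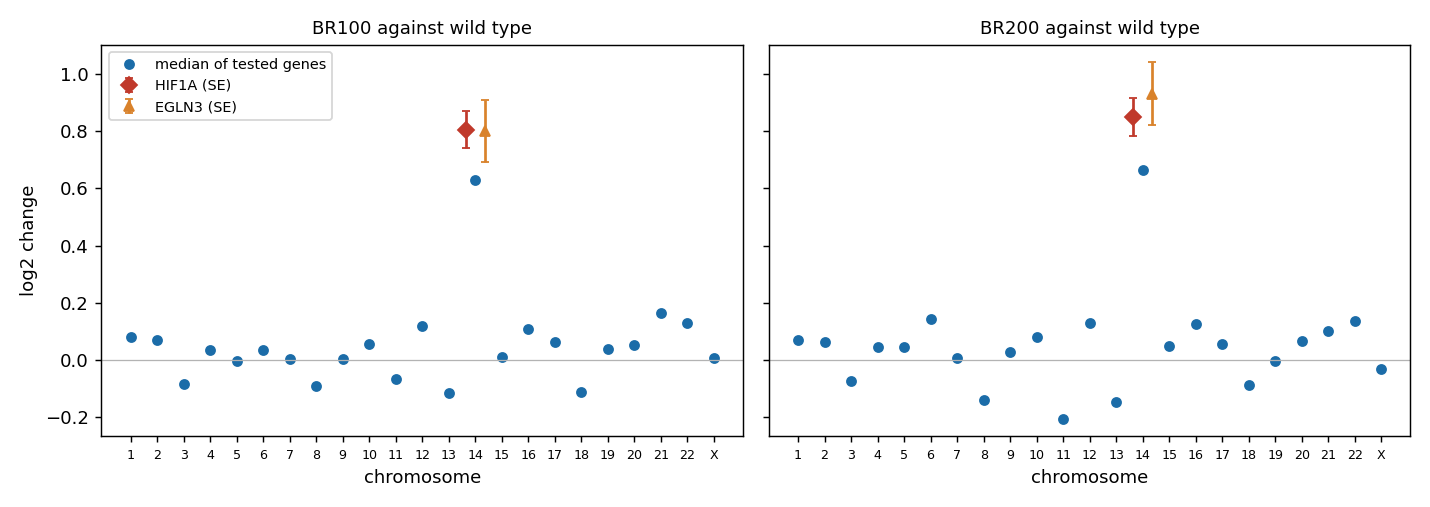
Median log2 change of the tested genes of each chromosome (circles; x axis, chromosome) in BR100 (left) and BR200 (right) against wild type, with the changes of HIF1A (diamond) and EGLN3 (triangle) and their limma SE. Chromosome 14 stands at 0.63 and 0.66, close under both genes.

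The wider pathway was described with lists of related genes, beginning with the control of HIF. All lists, like the members, were chosen with earlier results of these data known. The counts of each list stand beside 36.7% of all genes higher and 31.8% lower in BR100, and 35.4% higher and 31.2% lower in BR200, with a median of 0.04 in both. Of 19 listed genes 16 were tested; 6 were higher and 7 lower in BR100, 7 higher and 6 lower in BR200, with medians of 0.03 and 0.11. Without the term for kit 4 were lower in BR100, and 4 were higher and 2 lower in BR200. CITED2, a HIF target that competes with HIF for its coactivators, fell by 2.10 in BR100 (SE 0.107, adjusted p = 0.000264) and stood at 0.25 in BR200 (adjusted p = 0.104). EPAS1, the other main alpha subunit, changed by −0.91 and −0.36, opposite to HIF1A. RBX1, a ring subunit of cullin ubiquitin ligases, rose by 1.24 and 1.26, and SIAH2, a ligase that acts on EGLN proteins, changed by −0.71 and −0.91. ARNT and EGLN1, picked after their values were seen as the HIF partner and the main HIF prolyl hydroxylase, changed by 0.46 and 0.39 and by −0.69 and −0.29, all called. HIF3A, ARNT2 and EGLN2 were near background.

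VEGFA stood among secreted factors and receptors of which 7 of 14 were tested, with 2 higher and 4 lower in BR100 and 1 higher and 3 lower in BR200 (medians −0.39 and −0.35). Dropping the kit term left 1 higher in BR100. EDN1, the vasoconstrictor endothelin, rose by 2.20 (SE 0.178) and 2.21 (SE 0.178). ADM, the vasodilator adrenomedullin, changed by −1.18 and −1.02, and FLT1, a VEGF receptor, by −0.77 and −0.68. PGF, a VEGF relative, fell by 0.39 in BR100 and stood at −0.06 in BR200 (adjusted p = 0.656). VEGFC, KDR, NRP2, ANGPTL4, STC1 and STC2 were near background on all arrays.

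Of 19 tested glucose metabolism genes that HIF can induce, 12 were higher and 2 lower in BR100 and 9 higher and 4 lower in BR200 (medians 0.33 and 0.17). The share of all genes called higher was 36.7% and 35.4%. Without the term for kit 6 and 5 of the 19 were higher. SLC2A1, the glucose transporter, changed by −1.66 (SE 0.120) and −1.31 (SE 0.120). PDK3, a kinase that inhibits pyruvate dehydrogenase, rose by 1.89 in BR100 and stood at 0.12 in BR200 (adjusted p = 0.424). ALDOC, an aldolase, rose by 0.57 and 1.61. AK4, a mitochondrial adenylate kinase, stood at 0.01 in BR100 (adjusted p = 0.936) and fell by 1.53 in BR200.

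All 16 tested genes of a list of other hypoxia-induced genes were called in BR100, 7 higher and 9 lower, beside 68.5% of all genes, and 6 were higher and 8 lower in BR200, beside 66.5% (medians −0.45 and −0.22). A fit with no kit term called 3 higher in each. CXCR4, a chemokine receptor, changed by −4.76 (SE 0.412) and −5.55 (SE 0.412) to near background, from 7.81 to 3.04 and 2.26, so the size depends on the background estimate. MXI1, an antagonist of MYC, changed by −2.07 and −1.54. KDM3A, a histone demethylase, changed by −1.37 and −0.94, and BHLHE40, a transcriptional repressor, by −1.16 and −1.37.

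Of 6 tested collagen-modifying enzymes, P4HA1 included, 0 were higher and 5 lower in BR100, and 0 were higher and 3 lower in BR200 (medians −0.70 and −0.37), beside 31.8% and 31.2% of all genes called lower. PLOD3 and PLOD2 are lysyl hydroxylases: PLOD3 changed by −0.84 and −1.02, and PLOD2 fell by 0.93 in BR100 and stood at 0.10 in BR200 (adjusted p = 0.394). P4HA2, the sister of P4HA1, fell by 0.97 in BR100 and stood at −0.26 in BR200 (adjusted p = 0.0518). P4HB, their shared partner subunit, changed by −0.56 and −0.57.

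In place of CA9, other carbonic anhydrases could be read. CA12, a membrane-bound relative that hypoxia also induces, changed by −2.24 (SE 0.0738) and −2.34 (SE 0.0738). The cytosolic CA13 changed by −2.11 and −2.72, and the cytosolic CA2 rose by 3.18 (SE 0.0661) and 3.50 (SE 0.0661). BSG, a chaperone of lactate transporters, rose by 1.11 and 0.97, but moved further between kits, by −2.00 on Express against One-Cycle arrays. The pH list counted 3 higher and 2 lower of 5 in BR100, and 2 and 2 in BR200 (medians 0.26 and 0.07), with 1 higher in each without the term for kit.

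Around BNIP3, 6 of 8 mitophagy genes were tested, with 2 higher and 1 lower in each resistant variant (medians −0.12 and −0.05). With the kit term dropped, 0 were higher in either and 0 lower in BR200. BNIP3L, its close relative, changed by −0.94 (SE 0.0898) and −0.42 (SE 0.0898), while PHB2, an inner membrane receptor, rose by 0.69 and 0.50 and FUNDC1, an outer membrane receptor, by 0.50 and 0.57. Of the NDRG family 2 of 4 were tested, and NDRG3 rose by 1.29 (SE 0.0859) and 1.43 (SE 0.0859) while NDRG1 fell. NDRG2 and NDRG4 were near background.

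HILPDA stood in a list of 8 lipid droplet genes, all tested, with 3 higher and 2 lower in each resistant variant (medians 0.11 and 0.06). G0S2, which like HILPDA inhibits the lipase PNPLA2, changed by −7.09 (SE 0.127) and −6.78 (SE 0.127), from 11.82 to 4.73 and 5.04. PLIN2, a droplet coat protein, changed by −1.44 and −1.50, and PLIN3, another coat protein, rose by 1.41 and 1.34. ABHD5, the activator of that lipase, rose by 0.80 and 0.61, beside a change of −0.76 on Express against One-Cycle arrays.

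Of 10 tested genes that control mTORC1, DDIT4 included, 1 was higher and 5 lower in BR100, and 2 were higher and 6 lower in BR200 (medians −0.17 and −0.28), beside 31.8% and 31.2% of all genes called lower. Those that fell include the activator RHEB, at −0.24 and −0.20, which was chosen after its values were seen. With no kit term 0 were higher and 3 lower in each. SESN2, a leucine-sensing inhibitor of the pathway, changed by −4.62 (SE 0.145) and −5.21 (SE 0.145), and DEPTOR, an inhibitory mTOR partner, by −3.08 and −3.73. AKT1S1, a further inhibitor, stood at −0.11 in BR100 (adjusted p = 0.538) and fell by 0.72 in BR200. TSC2, the GTPase activator through which DDIT4 acts, stood at 0.11 in BR100 (adjusted p = 0.226) and rose by 0.39 in BR200. AKT1S1 and TSC2 moved further between kits, by −1.27 and −0.88 on Express against One-Cycle arrays.

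The ATF4 response, which shares DDIT4 and VEGFA with the hypoxia response, was lower: 7 of 7 listed genes fell in BR100 and 6 of 7 in BR200 (medians −3.76 and −3.63). This list was drawn up with its fall already known, so its count is no independent evidence. CHAC1, which degrades glutathione, changed by −6.13 and −6.11, to near background. ASNS, the asparagine synthetase, changed by −4.23 and −4.21, and TRIB3, a pseudokinase, by −3.76 and −3.83. ATF3, a transcription factor of the same response, fell by 4.23 in BR100 and stood at 0.33 in BR200 (adjusted p = 0.275). The part of this response in the falls of DDIT4 and VEGFA was not tested.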

How the data were processed

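Expression of 3 HT-29 variants was read on Affymetrix arrays, 6 in all. The log2 values, 1 per probe set, were deposited by the authors, and GCRMA, which corrects background, normalizes and summarizes probes, is named in the submitters' processing notes without a version. No detection calls were used here. Precision is limited by how far a signal stands above background and by how few arrays there are.

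Array annotation named a single gene for 41097 of 54675 probe sets, several for 1801 and none for 11777. Symbols were checked against RefSeq for 41043 sets and none changed. The set with the highest mean over all arrays stood for a gene. Genes reaching a log2 value of 4 on at least 2 arrays were kept (10370, with 9405 set aside). A linear model over all 6 arrays with terms for variant and kit was fitted by lmFit and eBayes (limma 3.58.1, R 4.3.3). It was also run on simulated data in which few genes changed, unlike here, so that run is no support for the calls. Tests were two-sided; genes with a p under 0.05 after Benjamini-Hochberg adjustment across the kept genes were called. There were 2 residual degrees of freedom, plus 2.33 from the prior. Levels and differences are on the log2 scale, and errors of differences are limma's SE.

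The members and lists were chosen with earlier results of these data known. All members are named. From each other list up to 4 called genes with the largest change against wild type are named. ARNT, EGLN1 and RHEB are named besides, as stated. Alternatives covered the kit term, probe set choice, low-value filters, scaling, the prior and each array left out.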

Additional observations from a re-analysis of the deposited data

Results flagged for a closer look

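The change against wild type differed between the resistant variants for 3 hypoxia response genes, tested as BR200 against BR100 (limma, adjusted over all genes): ANKRD37 by 1.44 (adjusted p = 0.00525), DDIT4 by −1.42 (adjusted p = 0.00743) and NDRG1 by 1.45 (adjusted p = 0.0167), each in the same direction in both kits. EGLN3 went opposite ways in the kits in that comparison, at 0.31 on Express arrays and −0.048 on One-Cycle arrays; with 1 array on each side this was not tested.

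Among the related genes named above, the changes differed by 2.35 for CITED2 (adjusted p = 0.00478), 4.56 for ATF3 (adjusted p = 0.00525), 1.03 for PLOD2 (adjusted p = 0.013), 0.72 for P4HA2 (adjusted p = 0.0224), 1.04 for ALDOC (adjusted p = 0.0416), 0.52 for BNIP3L (adjusted p = 0.0422) and 0.43 for KDM3A (adjusted p = 0.0408), all higher in BR200. Those lower in BR200 differed by −1.77 for PDK3 (limma adjusted p = 0.00827) and −1.54 for AK4 (adjusted p = 0.00754). The differences of DEPTOR and CA13, also lower in BR200, were −0.65 (adjusted p = 0.0184) and −0.61 (adjusted p = 0.0498). Of all genes tested, 10.6% were called in this comparison. How these calls of related genes depend on single arrays is not given gene by gene.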

How the results depend on the processing

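Against wild type, HIF1A, VEGFA, NDRG1, HILPDA and DDIT4 kept their direction and call under all 16 or 17 alternatives in which each had a value, within-kit values included, which carry no test. Without the kit term 4387, 4100 and 112 genes were called (BR100 and BR200 against wild type, BR200 against BR100). Against wild type, 2 members were then higher and 4 lower in BR100, and 2 higher and 4 lower in BR200. In BR200 against BR100, 0 members were higher. Without shared or cross-hybridizing probe sets only HIF1A, HILPDA and ANKRD37 could be tested: 1 was lower in BR100 and 0 in BR200, 1 was higher and 0 lower in BR200 against BR100, and 1 was higher and 0 lower on Express arrays. With no filter 15 genes and 0 members were called in BR200 against BR100, and 468 genes and 0 members between kits; P4HA1 lost its calls (adjusted p = 0.126 and 0.117), as did EGLN3 in BR100 (0.0548) and ANKRD37 in BR200 (0.0556). A trended, robust prior called 2254 genes in BR200 against BR100 and 4 members higher on Express arrays, and with it VEGFA passed in BR200 against BR100 (adjusted p = 0.0151). Averaged probe sets gave 2 members lower on Express arrays. Leaving out each array called 5540 to 6606 genes in BR100 (3 members higher, 4 to 5 lower), 5162 to 6457 in BR200 (3 to 4 higher, 3 to 4 lower), 0 to 61 in BR200 against BR100 (0 higher, 0 to 1 lower; 1953 to 3273 genes at an unadjusted limma p under 0.05) and 430 to 1797 between kits (1 to 2 higher, 0 lower); the fit pools the spread, so a lone array is assumed to vary like the others. Signs turned for EGLN3 in BR200 against BR100 within One-Cycle arrays (−0.048) and without the BR100 Express array (−0.024; −0.024 to 0.28 with each array left out). They turned for P4HA1 in the same comparison without the BR100 One-Cycle array (0.040) or the BR200 Express array (0.053; range −0.11 to 0.053), for P4HA1 between kits with centred arrays (−0.076) or without either wild type array (−0.070; range −0.070 to 0.085), and for HILPDA between kits with averaged probe sets (0.31, adjusted p = 0.0295). The cause of these shifts was not tested.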
